A study of Mus musculus with 6 samples.

Results

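T cell receptor joining (J) segments are the short gene pieces that link the variable part of a receptor chain to its constant gene. They were taken as every row of the deposited expression table whose mouse symbol starts with Traj (alpha chain, chromosome 14) or Trbj (beta chain, chromosome 6), which gave 73 of 35275 rows, 59 of them Traj and 14 Trbj. Messenger RNA had been sequenced from regulatory T cells (Treg), CD4+ cells that restrain immune responses and that were sorted by a yellow fluorescent protein (YFP) made with Foxp3. The control group was 3 libraries from Foxp3YFPcre male mice aged 6 to 8 weeks, and their genotype label reads wild type although they carry the Cre. The deletion group was 3 libraries from male mice of the same age that carry both Foxp3YFPcre and floxed Rcor1, the gene of the corepressor scaffold CoREST1. Both groups thus carry the Cre, which the Foxp3 gene drives.

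In a developing T cell, recombination joins 1 variable segment to 1 joining segment, with a diversity (D) segment between them in the beta chain. The joining segment supplies the end of the loop that contacts antigen, then a conserved stretch of framework, and splicing connects it to the constant gene. Traj segments that remain between the joined segment and Trac lie in the intron of the primary transcript. The beta locus holds 1 group of joining segments before each of its constant genes, the Trbj1 group before Trbc1 and the Trbj2 group before Trbc2. Most joining segments encode the framework motif phenylalanine, glycine, any residue, glycine.

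The sequences shown first are those of the Trbj segments with the clearest rise or an annotation of interest, read from GENCODE M21 transcripts (GRCm38, plus strand, 5′ to 3′). Capitals mark the motif TTNGGNNNNGGN, which covers the codons of the framework motif and also allows leucine in place of phenylalanine, where N is any base and overlapping matches are merged.
Trbj1-4: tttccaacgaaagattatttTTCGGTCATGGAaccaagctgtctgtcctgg
Trbj1-5: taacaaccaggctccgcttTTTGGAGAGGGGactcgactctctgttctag
Trbj1-7: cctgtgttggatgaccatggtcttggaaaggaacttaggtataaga
Trbj2-3: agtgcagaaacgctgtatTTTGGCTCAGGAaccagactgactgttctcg
Trbj2-6: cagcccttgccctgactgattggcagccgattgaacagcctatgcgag
Trbj1-4 and Trbj1-5 lie at chr6:41534811-41534861 and chr6:41535084-41535133, and both hold the motif. Trbj1-7 (chr6:41535642-41535687), which is annotated as a gene, and Trbj2-6 (chr6:41543598-41543645), the only Trbj annotated as a pseudogene, do not hold these letters. Trbj2-3 lies at chr6:41543223-41543271.

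The Traj segments shown next are 3 that passed under every alternative run (Traj17, Traj7 and Traj4), 3 that reached the filter in 1 group only (Traj58, Traj49 and Traj35), the segment nearest Trac, and the segments of the invariant receptors.
Traj58: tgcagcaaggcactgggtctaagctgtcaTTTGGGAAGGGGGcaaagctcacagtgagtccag
Traj49: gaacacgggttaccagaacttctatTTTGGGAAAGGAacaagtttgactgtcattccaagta
Traj35: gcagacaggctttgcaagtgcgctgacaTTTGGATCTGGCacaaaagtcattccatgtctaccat
Traj33: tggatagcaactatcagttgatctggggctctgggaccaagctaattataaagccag
Traj18: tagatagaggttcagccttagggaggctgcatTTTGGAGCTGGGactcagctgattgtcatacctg
Traj17: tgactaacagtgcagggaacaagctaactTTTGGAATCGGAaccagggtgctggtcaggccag
Traj7: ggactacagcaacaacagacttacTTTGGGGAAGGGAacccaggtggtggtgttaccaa
Traj4: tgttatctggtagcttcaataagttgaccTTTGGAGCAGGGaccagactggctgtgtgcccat
Traj1: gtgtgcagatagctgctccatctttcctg
Over the whole set, 56 of 73 segments (76.7%) held the motif on the sense strand and 0 held it on the other strand. In 53 of the 56 at least 1 match began with TTT or TTC, and in Traj55, Traj44 and Traj38 the match began with TTG. The reading frame was not followed, so these letters do not settle which residue a segment encodes. In Traj7, for example, 2 matches overlap in different frames. Of 3935810 windows of 60 bases from other transcripts, 2.35% held it on either strand. The motif was present in 43 of 50 Traj annotated as genes, in 2 of 9 Traj pseudogenes and in 11 of 13 Trbj genes. Among the 16 segments that rose in the deletion libraries, 13 held it. A match describes the sequence only, and a segment without these letters may encode the framework in another form.

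Library totals recovered from the deposited values were 18538581 to 22349455 fragments, and 11275 to 11658 genes per library reached 1 FPKM (fragments per kilobase of gene length and 1000000 fragments). Rcor1 was 15.8 ± 0.56 FPKM in control and 13.2 ± 0.85 FPKM in deletion libraries (mean ± SD, n = 3), without overlap but short of the threshold (adjusted p = 0.0562). It did pass under 5 of the 16 alternatives, among them median-ratio scaling (adjusted p = 0.0289) and voom (adjusted p = 0.0166), and adjusted p over all of them ran up to 0.152. That value counts all exons, floxed or not, and so checks the labels only weakly. Among 5 Treg markers, Foxp3 was at 95.6 ± 9.4 and 103 ± 3.1 FPKM, and Ikzf2 rose from 47.5 ± 5.9 to 62.5 ± 3.9 FPKM (adjusted p = 0.0463). No tested marker of CD8, gamma-delta or invariant NKT cells, immature thymocytes, or natural killer or myeloid cells passed the threshold. The first 4 of these cell types rested on 1 tested gene each, Cd8b1, Sox13, Klrb1c and Dntt in that order. The B cell marker Cd79a was higher in every deletion library, at 10.7 ± 4.6 and 15.4 ± 1.5 FPKM, but did not pass (adjusted p = 0.233), and Cd79b (13.9 ± 2.6 and 15.8 ± 1.4 FPKM) and Ms4a1 (1.85 ± 1.5 and 3.29 ± 0.89 FPKM) overlapped between groups. Summed myeloid markers ranged from 5.99 to 39.8 FPKM in control and from 3.40 to 71.7 FPKM in deletion libraries. The part of these cells in the results below was not tested.

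Joining segments as a set were higher in the deletion libraries. The 73 segments together took 62.3, 67.2 and 53.4 fragments per 1000000 of the library total (CPM) in the control group, in the order of libraries 1 to 3 that is kept throughout. In the deletion group they took 86.4, 96.5 and 114 CPM. Every deletion library lay above every control library, and the ratio of means was 1.62. In sorted bulk cells, a difference in the share of cells that carry a transcript and a difference in RNA per cell cannot be told apart.

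Of the 73 segments, 71 had at least 1 fragment and 60 passed the filter of at least 1 FPKM in at least 3 libraries. Among these 60, limma found 16 (26.7%) higher and 1 (1.67%) lower in the deletion libraries at an adjusted p under 0.05, against 8.95% higher and 3.08% lower of all 11575 tested genes. The median log2 fold change was 0.69 over the tested segments and 0.08 over all tested genes, and 85.0% of segments against 65.3% of all genes had a value above 0. All 3 deletion libraries lay above all 3 control libraries for 38.3% of the tested segments, against 29.3% of all tested genes, and below them for 3.33%, against 9.79%. Traj58, Traj35 and Traj49 reached 1 FPKM in libraries of 1 group only, so they had to differ once they passed the filter, and the values above include them. Without them, 14 of 57 segments (24.6%) were higher with limma, and the median log2 fold change was 0.67. At the threshold, 0 of the 57 were lower with limma and 0 with voom. At an unadjusted p under 0.05 with limma 2 were lower, a count for which no share of all genes was computed.

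Without deletion library 3 the count of higher segments was 7, and without deletion library 2 it was 10, while the share of all genes called higher was 1.8% and 2.12%. It was 9 of 71 with no filter, where 2.58% of all genes were higher, and 10 with voom on recovered fragments, a limma model for counts. Under median-ratio scaling 4.83% of all genes were higher and 5.46% lower, while the segments gave 15 higher and 1 lower. With quantile normalization, 4.09% of all genes were higher and 3.41% lower, against 14 and 1 of the segments. With voom these shares were 6.08% and 6.29%, against 10 and 0 of the segments. Each count of higher segments in this paragraph includes Traj58 and Traj35, and the 1 lower segment is Traj49. In every fit of this paragraph but the one with no filter, these segments had to differ. The counts of those fits thus overstate how well the result held.

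**Figure D1:**
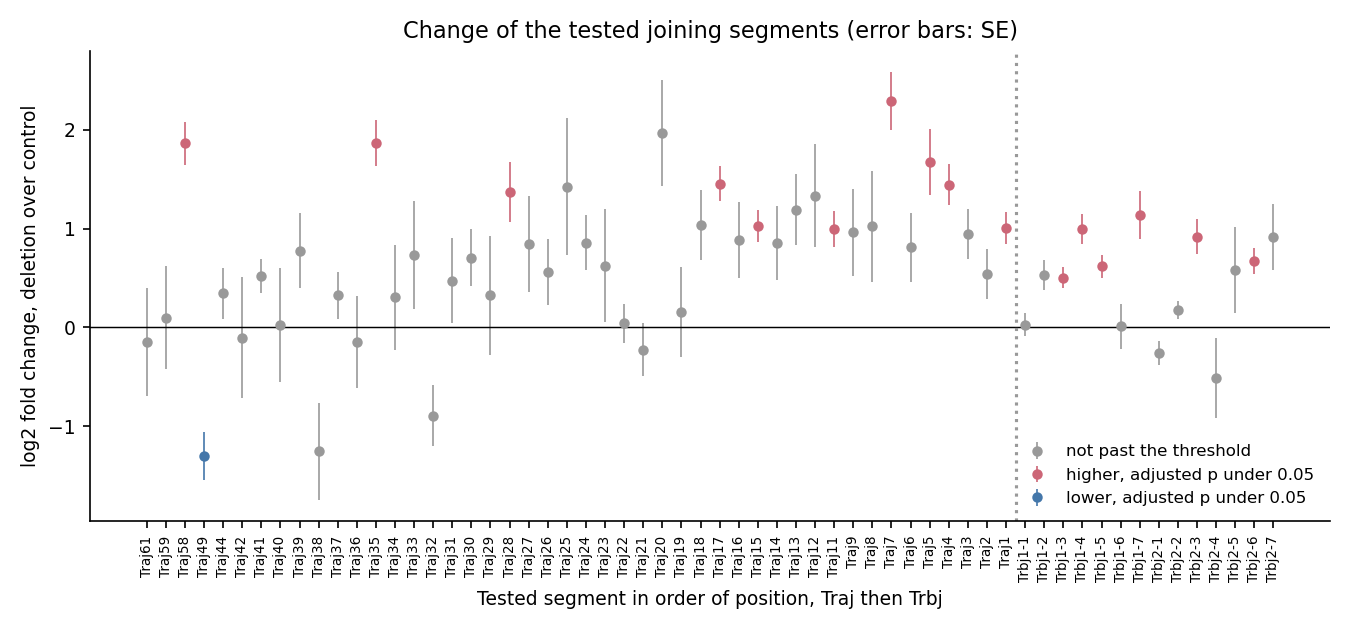
Log2 fold change (deletion over control, on log2(FPKM + 1), vertical axis) of the 60 tested segments in order of position, Traj left and Trbj right of the dotted line, with standard errors. The 16 red points are the segments that passed the threshold as higher, and the blue point is Traj49. Traj49 and the red points Traj58 and Traj35 reached the filter in 1 group only, so they had to differ.

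Within the beta locus, 6 of 14 Trbj segments rose, and their median log2 fold change was 0.56. The 6 were Trbj1-3, Trbj1-4, Trbj1-5, Trbj1-7, Trbj2-3 and Trbj2-6, spread over both groups of segments. At an unadjusted p under 0.05 there were 8 of 14, all of them higher, against 24.6% of all tested genes, and 0 segments fell with limma or with voom. Summed Trbj fragments in the control group were 44.6, 50.4 and 38.7 CPM, against 61.7, 60.8 and 73.8 CPM in the deletion group, a ratio of 1.47. These ranges did not overlap. Without deletion library 3 the number of Trbj past the threshold was 0, although the summed ratio was still 1.38. It was 2 without control library 1 or deletion library 1, where 2.42% and 3.34% of all genes were higher. It was 3 without control library 3 (3.89% of all genes) or deletion library 2 (2.12%). With the replicate number as a block it was 2 (2.32% of all genes).

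Trbj1-5 (ENSMUSG00000076487) had the highest level of any joining segment. It held 207, 190 and 144 fragments in control and 318, 250 and 312 fragments in deletion libraries. All deletion values were above all control values, and the group means were 182 ± 24 and 280 ± 31 FPKM (adjusted p = 0.0225, log2 fold change 0.62, SE 0.12). That call was lost without deletion library 1 (adjusted p = 0.0731) and without deletion library 3 (adjusted p = 0.0854). Trbj1-4 (ENSMUSG00000076486), the neighbor before it, held 80, 110 and 68 control fragments and 176, 175 and 190 deletion fragments. Its groups stood far apart, at 85.5 ± 20 and 169 ± 15 FPKM (adjusted p = 0.0123, log2 fold change 1.00, SE 0.15). Without control library 1 the adjusted p was 0.0503 and without deletion library 3 it was 0.0574. Trbj1-3 was the next most abundant of its group, with 135, 137 and 111 FPKM in control and 166, 173 and 202 FPKM in deletion libraries. The groups did not overlap and the rise was modest (log2 fold change 0.50, SE 0.11, adjusted p = 0.0295). It no longer passed when control library 1 or 3 or any 1 deletion library was left out (adjusted p = 0.0578 to 0.0918). The limma call was also lost under median-ratio scaling (adjusted p = 0.0505) and quantile normalization (adjusted p = 0.0544). In all, 10 of the 16 alternatives lost it.

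Trbj1-7, the last of its group before Trbc1, held 31.3, 36.9 and 19.2 FPKM in control and 53.7, 60.2 and 78.0 FPKM in deletion libraries. The lowest deletion value exceeded the highest control value, and the log2 fold change of 1.14 (SE 0.24, adjusted p = 0.0297) was the largest of any Trbj segment. Only 2 of the 6 fits with 1 library left out kept this call, and adjusted p reached 0.0998. Trbj2-3 held 26.7, 46.2 and 33.0 FPKM in control against 69.4, 63.3 and 65.5 FPKM in deletion libraries. The deletion libraries were close to each other and above all controls (log2 fold change 0.92, SE 0.18, adjusted p = 0.0224). Its call was also kept in 2 of 6 such fits, with adjusted p up to 0.0831. Trbj2-6, the pseudogene segment, held 24.2, 30.4 and 30.3 FPKM in control and 40.1, 43.1 and 54.6 FPKM in deletion libraries. It rose without overlap (log2 fold change 0.67, SE 0.13, adjusted p = 0.0252), and 2 of 6 such fits kept the call, with adjusted p up to 0.0736. With voom, Trbj1-3, Trbj1-7 and Trbj2-6 did not pass (adjusted p = 0.0896, 0.0507 and 0.139). With no filter on low values, Trbj1-4 was the 1 Trbj segment past the threshold.

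The other 8 Trbj segments did not pass the threshold. Trbj1-2 was at 50.5, 45.03 and 50.6 FPKM in control and 84.8, 55.4 and 75.1 FPKM in deletion libraries, without overlap (adjusted p = 0.0599). Trbj2-7 was at 109, 132 and 53.9 FPKM in control and 141, 161 and 232 FPKM in deletion libraries, again without overlap but with a wide spread (adjusted p = 0.115). Trbj1-1 was level, at 59.7 ± 8.3 and 60.8 ± 6.7 FPKM, and so was Trbj1-6, at 60.7 ± 18 and 60.3 ± 13 FPKM. The sign of their log2 fold changes, 0.03 and 0.01, turned with scaling. Trbj2-1 had the lower mean in deletion libraries, 50.5 ± 8.0 against 60.4 ± 6.3 FPKM, and its groups overlapped (adjusted p = 0.189). Trbj2-2 was at 58.4 ± 4.9 and 66.3 ± 6.5 FPKM. Trbj2-4 and Trbj2-5 were the least abundant, with 2 to 8 and 5 to 22 fragments per library.

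**Figure D2:**
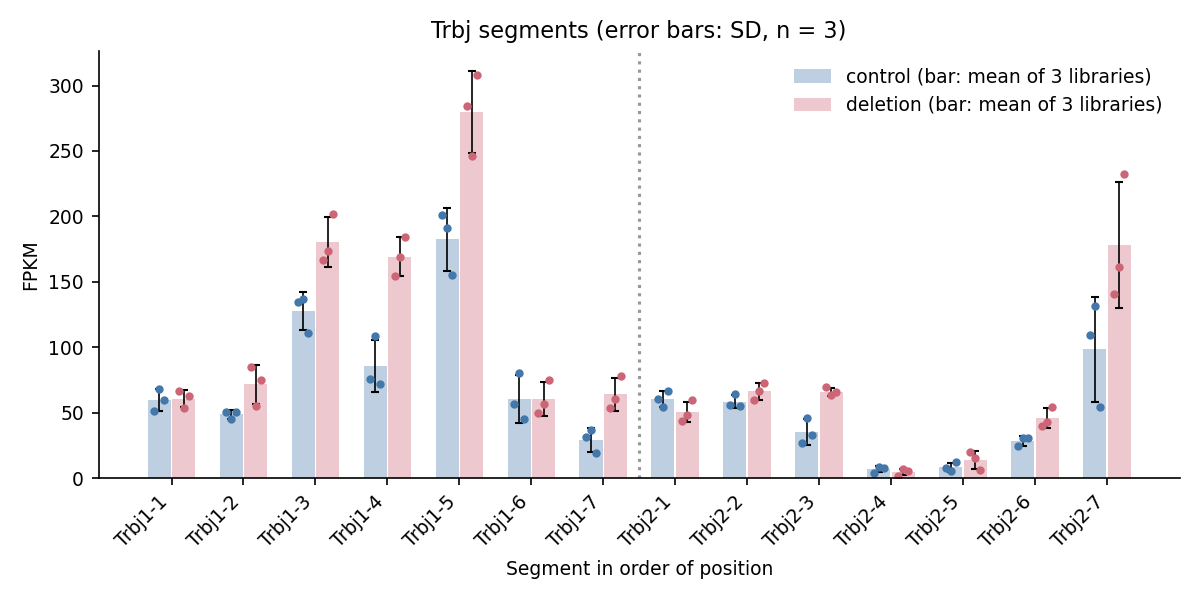
FPKM of the 14 Trbj segments in order of position, Trbj1 left and Trbj2 right of the dotted line. Bars are means of 3 libraries with SD, and points are libraries. Trbj1-5 stands highest in both groups (182 and 280 FPKM), Trbj1-4 shows separated groups, and Trbj1-1 and Trbj1-6 show level means.

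The balance between the Trbj groups was similar in both genotypes. Trbj1 segments made up 68.4, 67.2 and 67.1% of Trbj fragments in control and 70.4, 67.7 and 67.5% in deletion libraries, and these values overlap. Trbc1 made up a smaller share of the constant gene fragments, 36.1 ± 0.15% in control and 35.1 ± 0.51% in deletion libraries, with every deletion library lower. Within Trbj, Trbj1-4 took 9.72 ± 1.2% of fragments in control and 13.2 ± 0.81% in deletion libraries, and Trbj1-7 took 2.89 ± 0.58% and 4.38 ± 0.42%. Both shares were higher in every deletion library. Shares of Trbj1-1 (6.48 and 4.48%), Trbj1-6 (7.12 and 4.86%), Trbj2-1 (6.93 and 3.85%) and Trbj2-2 (6.72 and 5.18%) were lower in every deletion library. Shares within a library sum to a fixed total, so these values depend on each other, and they were given no test.

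In the alpha locus, 10 of the 46 tested Traj segments rose and 1 fell, against 8.95% and 3.08% of all tested genes, with a median log2 fold change of 0.79. Without the 3 that passed the filter through 1 group, 8 of 43 (18.6%) rose, 0 fell and the median was 0.78. With voom, 0 of these 43 were lower at the threshold. At an unadjusted p under 0.05 with limma 2 were lower, again with no share of all genes computed. Summed Traj fragments were 17.7, 16.8 and 14.7 CPM in control and 24.7, 35.7 and 39.8 CPM in deletion libraries. The groups did not overlap, with a ratio of means of 2.04. Leaving out any 1 library gave ratios from 1.84 to 2.30. The Traj counts were small, since 1 fragment was worth 0.621 to 2.0 FPKM in a joining segment and 43 of the 60 tested segments had fewer than 10 fragments in at least 1 library.

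Level fell with distance from Trac in every library. Across the 59 Traj segments, Spearman's rho between FPKM and distance lay between −0.91 and −0.77 in the 6 libraries, a description over segments that share each library and its depth. The 4 segments within 5 kb of Trac pooled to 21.7 ± 3.8 FPKM in control and 42.3 ± 7.7 FPKM in deletion libraries. At the far end, the 22 segments 40 to 70 kb away pooled to 0.977 ± 0.15 and 1.35 ± 0.47 FPKM. Control and deletion libraries thus shared the same order from high near Trac to low far from it.

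The difference between groups was uneven along the locus. The ratio of deletion to control was 3.12 for the 3 segments 5 to 10 kb from Trac, with 12.5, 13.5 and 7.07 pooled FPKM in control and 29.1, 36.8 and 36.99 in deletion libraries. Traj7 held 37 of the 120 control and 192 of the 393 deletion fragments of that bin. The ratio was 1.95 at 0 to 5 kb, 2.32 at 10 to 15 kb and 2.41 at 15 to 20 kb, and in these 4 bins the libraries did not overlap. Farther out it was 1.71 at 20 to 30 kb, 1.22 at 30 to 40 kb and 1.39 at 40 to 70 kb, and there the libraries of the groups overlapped. The 30 segments nearest Trac summed to 15.3, 14.4 and 12.2 CPM in control and 22.5, 33.0 and 35.8 CPM in deletion libraries, without overlap. The 29 farthest summed to 2.42, 2.41 and 2.48 CPM in control and 2.24, 2.66 and 3.95 CPM in deletion libraries, with overlap. Their share of all Traj fragments was 13.7, 14.3 and 16.9% in control and 9.04, 7.45 and 9.94% in deletion libraries, lower in every deletion library. Over the 46 tested Traj, the log2 fold change and the distance from Trac had a Spearman's rho of −0.55. That fold change is on log2(FPKM + 1), which understates changes of the low, far segments, so part of this rho can come from the scale. The 46 also include Traj58, Traj35 and Traj49, which passed the filter through 1 group only.

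**Figure D3:**
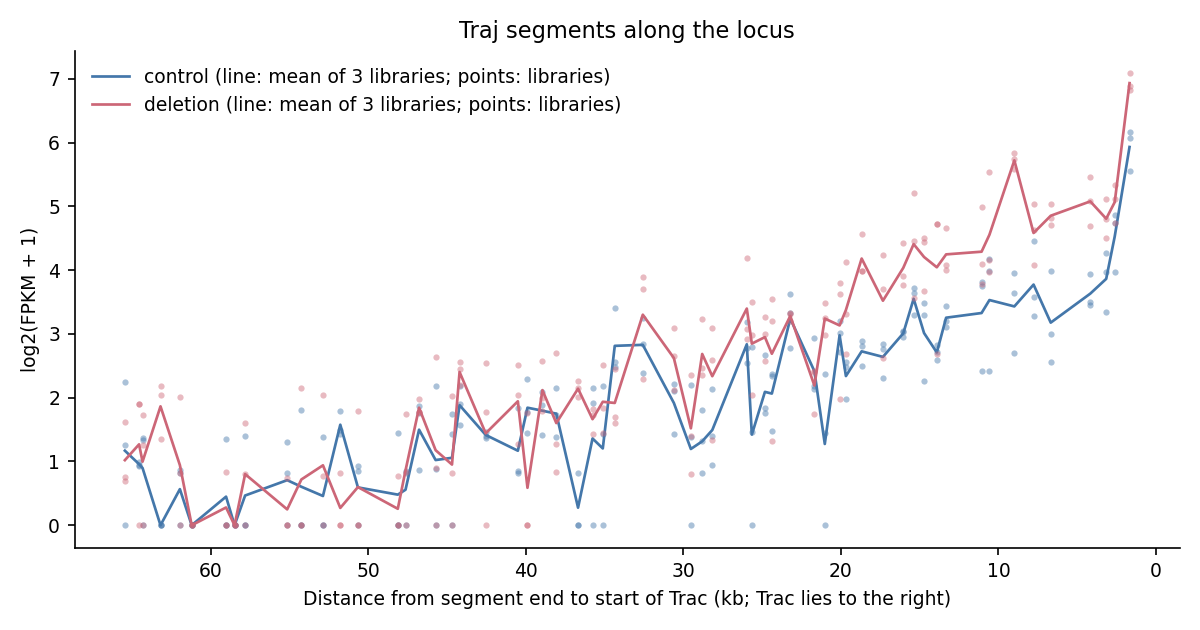
Log2(FPKM + 1) of the 59 Traj segments against distance from the start of Trac in kb, with Trac to the right. Lines are group means and points are libraries. Both lines climb towards Trac, and the deletion line runs above the control line over the last 20 kb.

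Traj7 (ENSMUSG00000076921, chr14:54211470-54211528) had the largest log2 fold change on the log2(FPKM + 1) scale of the segments that passed, a scale that understates low segments such as Traj58 and Traj35. It held 14, 17 and 6 fragments in control and 62, 67 and 63 fragments in deletion libraries. The lowest deletion library held several times the fragments of the highest control library, and the group means were 10.5 ± 4.6 and 51.9 ± 4.5 FPKM (adjusted p = 0.00694, log2 fold change 2.29, SE 0.29). Traj4 (ENSMUSG00000076924, chr14:54216291-54216353) held 13, 18 and 12 control fragments and 35, 55 and 42 deletion fragments. It rose without overlap from 11.6 ± 2.4 to 33.6 ± 9.1 FPKM (adjusted p = 0.01002, log2 fold change 1.45, SE 0.21). Traj17 (ENSMUSG00000076912, chr14:54201775-54201837) held 6, 8 and 7 control fragments and 21, 19 and 29 deletion fragments. Its controls were close together and far below the deletion libraries (log2 fold change 1.46, SE 0.18, adjusted p = 0.00593). Traj7, Traj4 and Traj17 passed under all 16 alternatives run, with adjusted p of at most 0.0487.

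Traj1 (ENSMUSG00000076927, chr14:54218814-54218842) lies 1.68 kb before Trac, is annotated as a pseudogene and was the most abundant Traj. It held 66.5, 70.8 and 46.0 FPKM in control and 113, 135 and 117 FPKM in deletion libraries. The groups did not overlap, with means of 61.1 ± 13 and 122 ± 12 FPKM (adjusted p = 0.0142, log2 fold change 1.00, SE 0.16). The call was lost without deletion library 2 (adjusted p = 0.0519) or 3 (adjusted p = 0.0566). Its share of Traj fragments was about level, at 9.98 ± 1.5% in control and 10.2 ± 2.2% in deletion libraries. Its neighbors Traj2 and Traj3 did not pass, with 22.9 ± 7.2 and 33.0 ± 6.9 FPKM for Traj2 (adjusted p = 0.189) and 14.1 ± 4.6 and 27.4 ± 5.9 FPKM for Traj3 (adjusted p = 0.0534).

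Traj5 held 19, 6 and 8 control fragments and 35, 40 and 34 deletion fragments. Its control library 1 was well above the other controls, though below all deletion libraries (log2 fold change 1.68, SE 0.33, adjusted p = 0.0245). The call was lost without control library 3 or any 1 deletion library (adjusted p = 0.0668 to 0.0858). Traj15 went from 7.06 ± 0.31 to 15.7 ± 4.2 FPKM (adjusted p = 0.0135) and Traj11 from 8.59 ± 1.1 to 18.4 ± 5.1 FPKM (adjusted p = 0.0201). Both had groups without overlap, and neither passed with voom (adjusted p = 0.0963 and 0.103). Without control library 3, Traj11 had an adjusted p of 0.0619. Traj28 held 2, 1 and 3 control fragments and 6, 6 and 11 deletion fragments. It passed at an adjusted p of 0.0347 but not with voom (adjusted p = 0.0975), nor without control library 1 or any 1 deletion library (adjusted p = 0.0620 to 0.0958). Of the remaining abundant Traj, Traj6 (13.6 ± 6.6 and 23.9 ± 8.0 FPKM) and Traj9 (9.97 ± 4.9 and 19.9 ± 9.5 FPKM) overlapped between groups and did not pass.

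Traj58, Traj35 and Traj49 lie far from Trac, rest on very few fragments and reached the filter through 1 group only, so their values are given with no p. Traj58 (chr14:54157280-54157342) had 0 fragments in each control library and 5, 2 and 4 in the deletion libraries, at least 3.44-fold higher in deletion with a floor of 3 fragments over the control group. Traj35 (chr14:54183774-54183838) had 0, 1 and 0 control fragments and 5, 5 and 4 deletion fragments, a ratio of 13.1 with a 95% counting interval of 2.00 to 556. For both, all deletion values lay above all control values, which passing the filter through the deletion group had fixed in advance. The floor and the interval are therefore no test of a difference. Traj49 (chr14:54168686-54168747) was the segment counted as lower, with 3, 2 and 2 control fragments and 1, 0 and 0 deletion fragments. Its ratio was 0.134 with an interval of 0.00298 to 1.04, and that call was lost with voom and without control library 1 or 3 or deletion library 2 or 3. Intervals and floors cover counting error only, because PCR copies cannot be told apart.

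Traj18 is the segment of the invariant NKT cell receptor, and Traj33 that of mucosal-associated invariant T cells. Traj18 held 4, 6 and 6 control fragments and 8, 12 and 22 deletion fragments. Every deletion library was above every control library, but the difference did not pass (log2 fold change 1.04, SE 0.35, adjusted p = 0.0935). Traj33 held 2, 4 and 0 control fragments and 6, 3 and 2 deletion fragments, which overlap (log2 fold change 0.73, SE 0.54, adjusted p = 0.384). The invariant NKT cell markers Zbtb16 and Klrb1c were at 0.932 and 4.17 FPKM in control and at 0.746 and 4.58 FPKM in deletion libraries. Traj61, the segment farthest from Trac, held 0, 2 and 5 control fragments and 1, 1 and 3 deletion fragments, with a log2 fold change of −0.15 whose sign turned with the pseudocount.

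Annotated pseudogene segments were expressed along with the others. Pooled over fragments, the 9 Traj pseudogenes went from 6.42 to 12.0 FPKM (ratio 1.87) of which Traj1 alone held 98 of 169 control and 206 of 336 deletion fragments, and the 50 Traj genes from 4.44 to 9.08 FPKM (ratio 2.04). In control libraries, 7 of the 10 pseudogene segments of both loci stood above the pooled level of their nearest neighbors annotated as genes, and in deletion libraries 4 of 10 did, many of them on few fragments. Traj1 against Traj2 was the widest of these gaps in control, at 61.5 and 23.1 pooled FPKM. In fragments Traj1 and Traj2 were close, at 98 and 90 over the control libraries, while FPKM divided these by 27 and 66 bases. Comparisons of pseudogene segments with other segments in FPKM thus depend on segment length, and the part of length was not tested. Trbj2-6 was below its neighbors, at 28.2 against 52.9 pooled FPKM.

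Constant, variable and diversity segments had ratios of deletion to control nearer to 1 than the joining segments, or below 1. Trac was at 267, 316 and 282 CPM in control and 295, 304 and 306 CPM in deletion libraries, a ratio of 1.05 with overlap. Per 1000 Trac fragments there were 57.2 ± 7.8 Traj fragments in control and 110 ± 24 in deletion libraries. Per 1000 fragments of Trbc1 and Trbc2 there were 46.6 ± 4.8 and 64.6 ± 7.8 Trbj fragments. In both of these ratios the deletion libraries were all above the controls. Trbc1 and Trbc2 themselves had ratios of 1.03 and 1.08, and neither passed the threshold (adjusted p = 0.614 and 0.24). Trbc1 overlapped between groups, while Trbc2 was higher in every deletion library. With quantile normalization, Trac, Trbc1 and Trbc2 did pass as higher (adjusted p = 0.0485, 0.0283 and 0.0398).

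Variable segments were level or lower in the deletion libraries. The 103 Trav rows summed to 239 ± 5.9 CPM in control and 216 ± 2.5 CPM in deletion libraries, without overlap and with a ratio of 0.902. The 22 Trbv rows summed to 539 ± 31 and 529 ± 12 CPM, with overlap. Trbd1, the diversity segment before the Trbj1 group, was chosen after its values were seen. It held 37.7, 43.6 and 38.1 CPM in control and 27.0, 26.1 and 28.1 CPM in deletion libraries. All deletion values were lower, and it fell by 0.55 on the log2 scale (SE 0.072, adjusted p = 0.0073). Trbd2, before the Trbj2 group, had a ratio of 1.16 with overlap and did not pass (adjusted p = 0.14).

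**Figure D4:**
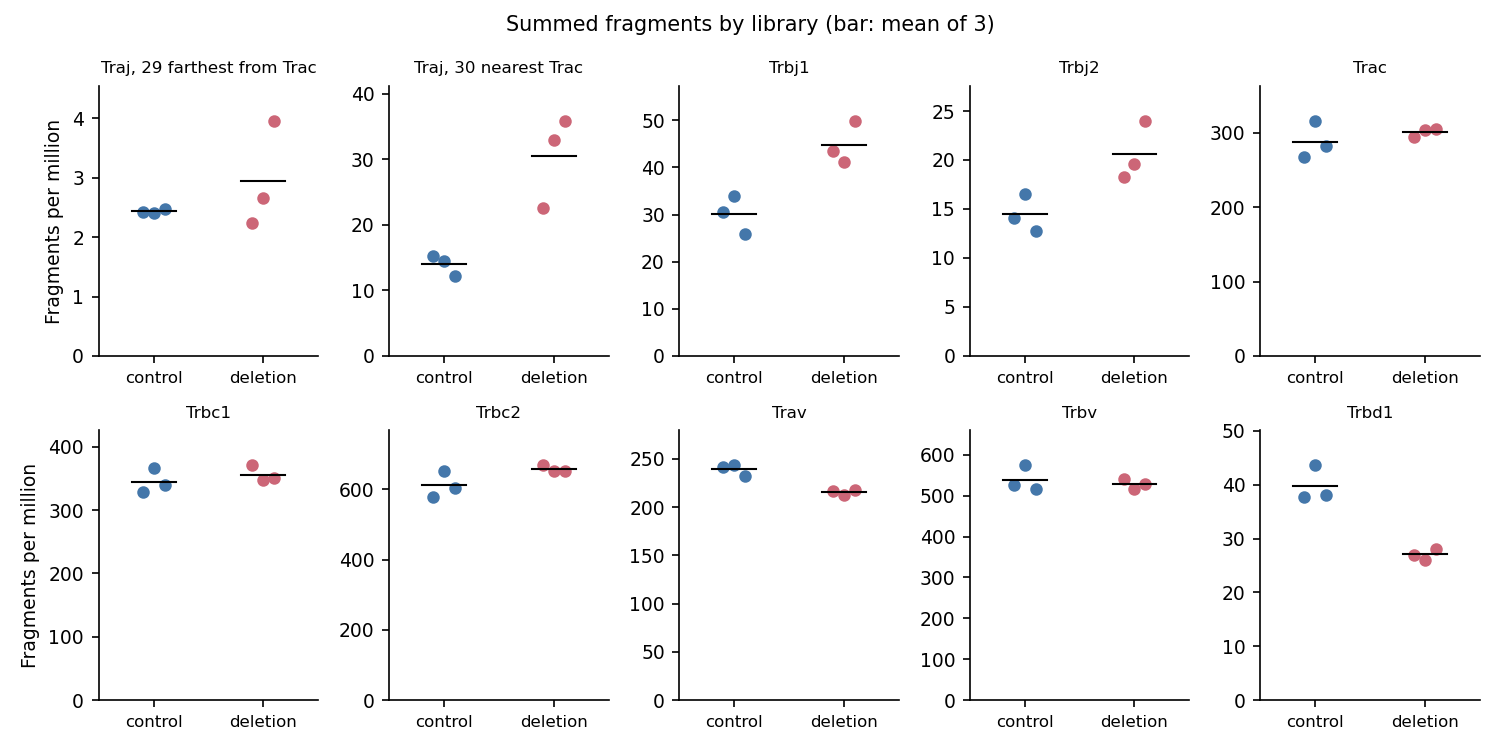
Summed fragments per 1000000 of the library total (vertical axes from 0) for sets of receptor segments and constant genes, with 1 point per library and a bar at the mean of 3. The 30 Traj nearest Trac, Trbj1, Trbj2 and Trbc2 lie higher in all deletion libraries. Trac overlaps between groups, and Trav and Trbd1 lie lower in all deletion libraries.

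Of 7 receptor chain genes tested, 2 partner chains passed as lower, where 3.08% of all tested genes did. Cd3g fell from 528 ± 8.9 to 465 ± 7.7 FPKM (adjusted p = 0.0421) and Cd247, the zeta signaling chain, from 76.6 ± 5.7 to 60.6 ± 5.0 FPKM (adjusted p = 0.0417). Cd3d (273 ± 6.8 and 260 ± 5.9 FPKM) and Cd3e (303 ± 26 and 270 ± 17 FPKM) did not pass, and the median log2 fold change of the 7 was −0.07. Both calls were lost with quantile normalization (adjusted p = 0.252 for Cd3g and 0.0552 for Cd247), and for Cd3g also whenever any 1 library was left out (adjusted p = 0.0549 to 0.141). For Cd247 this held for each library except deletion library 1 (adjusted p = 0.0595 to 0.138). Trdc, Trgc1, Trgc2 and Trgc4 were not analysed here.

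Of the recombination factors, which join these segments, 14 of 16 were tested and 2 passed as higher, near the 8.95% of all tested genes. Atm, the kinase that responds to DNA breaks, rose from 6.75 ± 0.67 to 9.94 ± 0.45 FPKM (adjusted p = 0.0154), and Prkdc, the catalytic subunit of DNA-dependent protein kinase, from 3.82 ± 0.14 to 5.08 ± 0.43 FPKM (adjusted p = 0.0426). The rest did not pass, and the median log2 fold change was 0.14. Prkdc did not pass under median-ratio scaling (adjusted p = 0.0828) and without any 1 library (adjusted p = 0.0508 to 0.140), and Atm without control library 1 or any 1 deletion library (adjusted p = 0.0503 to 0.0694). The recombinase genes Rag1 and Rag2 were barely detected, at 0.288 and 0.0289 FPKM in control and 0.272 and 0.0336 FPKM in deletion libraries. Dntt, which adds bases at the joint, was at 2.53 ± 1.0 and 3.73 ± 0.89 FPKM, with overlap (adjusted p = 0.226).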

How the data were processed

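The authors deposited FPKM values for 6 libraries. Per the submitters' processing notes, reads were aligned with STAR to mm10. The sources used here name no counting tool, annotation release, strand setting or filter. How a fragment that spans a joining segment and another gene was counted is unknown, and FPKM of such short genes depends on it.

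Symbols, positions and lengths came from GENCODE M21 (GRCm38), which matched 34490 of 35275 identifiers. Whole fragments were recovered from FPKM, length and library total within 0.01 fragments. For 66 segments the annotated length fitted, for 5 another length was solved (Traj49, Traj48, Traj14, Traj1 and Trbj1-7), and Traj54 and Traj56 were at 0. Traj47 and Traj10 were not analysed here.

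The main test was limma (version 3.58.1, R 4.3.3) with an expression trend on log2(FPKM + 1), which understates changes of low genes. It was two-sided, fitted on the 11575 genes that reached 1 FPKM in at least 3 libraries, with Benjamini-Hochberg adjustment over all of them and a threshold of 0.05. It was first run on simulated data that gave all genes the same spread, which says little about segments with few fragments. Sums, shares and pooled levels were given no test. The series text calls the 3 libraries of a group independent biological replicates, and no batch is named.

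Named segments were all Trbj, the 8 Traj with most fragments, up to 10 Traj past the threshold per direction, the Traj at both ends, Traj18 and Traj33. Receptor chains and recombination genes were named by list. Members and lists were chosen with earlier results of these data known. Of the B cell marker list, 1 gene is not reported here.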

Additional observations from a re-analysis of the deposited data

How the results depend on the processing

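The 16 alternatives were pseudocounts of 0.1 and 5 FPKM, no filter, filters at 5 FPKM and at 10 fragments, median-ratio scaling, quantile normalization, voom with median-ratio scaling, voom with library totals (added after the data were seen), the replicate block and leaving out each of the 6 libraries. The count of higher segments, 16, became 9 with no filter, 10 with voom and median-ratio scaling, and 7 to 17 with 1 library left out. It was 12 with voom and library totals (12.4% of all genes), 13 of 38 tested at 5 FPKM (9.95%) and 13 of 28 at 10 fragments (7.8%). The count of lower segments, 1, became 0 at 5 FPKM, at 10 fragments and with both voom fits, and 0 to 1 with 1 library left out. With the replicate number as a block, 12 segments were higher and 1 lower (2.32% and 1.17% of all genes). Of these 12, 10 were Traj and 2 were Trbj, against 10 and 6 in the main fit. Traj58 and Traj35, which passed the filter through 1 group, are among the higher segments in all 14 alternatives that tested them. The filters at 5 FPKM and at 10 fragments did not test them. The segment counted as lower is Traj49. Same-numbered libraries did not deviate together (r = 0.211, −0.135 and −0.162), so the numbers were not taken to pair samples. The Trbj1 share of Trbj was 66.8% in control from FPKM and 59.2% and 59.99% in control and deletion without Trbj1-5. The share of the 29 far Traj in control was 12.9% from FPKM. The Traj and Trbj ratios kept their direction under each alternative run. Log2 fold changes that turned sign were all short of the threshold. Under median-ratio scaling and voom with median-ratio scaling they were −0.058 and −0.055 for Trbj1-1, −0.073 and −0.091 for Trbj1-6, −0.018 and −0.018 for Trac, and −0.040 and −0.039 for Trbc1. Trbj1-6 was also at −0.011 with quantile normalization and −0.0024 with voom and library totals, Cd3d at 0.0079 with quantile normalization, and Traj61 at 0.36 with a pseudocount of 0.1. With 1 library left out, values ran from −0.072 to 0.13 for Trbj1-1, from −0.18 to 0.23 for Trbj1-6 and from −0.73 to 0.39 for Traj61. The cause of these changes was not tested. Depth limits the far Traj, since many rest on a few fragments per library.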

Other observations

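Control libraries differed among themselves in how they spread fragments over the segments by amounts that overlapped those between groups, while deletion libraries were closer to each other than any pair of libraries from different groups. For Traj, the share of fragments that would have to move to make a pair of libraries alike was 21.7 to 26.8% within control, 17.1 to 20.1% within deletion and 22.4 to 29.7% between groups. For Trbj its median was 9.8% within control, 6.83% within deletion and 11.2% between groups, and the between-group values began at 8.39%, below the highest within control (10.9%). Control libraries held 272 to 365 Traj fragments and deletion libraries 553 to 805, and the part of this depth in the values was not tested.

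The delta chain joining segments Trdj1 and Trdj2 summed to 3.54, 3.02 and 1.35 CPM in control and 4.61, 3.05 and 2.72 CPM in deletion libraries. These overlap, and neither passed the threshold (adjusted p = 0.256 for Trdj1 and 0.691 for Trdj2). Traj54 and Traj56 had 0 fragments in all 6 libraries, which allows up to 0.456 and 0.391 FPKM over the libraries together.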
